A study of Homo sapiens with 8 samples.

Results

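Ribosome footprints on the cytosolic Hsp90 genes and their principal co-chaperones were examined by selective ribosome profiling of a human osteosarcoma line, U-2 OS. The 10 genes were taken from the composition of the chaperone system (HSP90AA1, HSP90AB1, STIP1, CDC37, AHSA1, PTGES3, FKBP4, FKBP5, PPID and UNC45A), and all 10 of them were present among the 60664 gene identifiers of the count tables. The method reads out which mRNA fragments are shielded by ribosomes against nuclease. This is done once in all ribosomes (input) and once in ribosomes recovered with a bound factor (pulldown). A gene whose nascent chains engage the factor may then gain footprints in the pulldown relative to the input. The counts used here sum each whole gene, so engagement over a short part of a coding sequence need not change them. The study itself compared pulldown with input at each coding position. It reported that the substrates shared by TRiC and PFD were enriched in Hsp90 proteins, among other chaperones. In the TRiC–Halo line the HaloTag was fused to the chaperonin subunit CCT4 at its endogenous gene, and in the PFD–Halo line to the prefoldin subunit PFDN4 (PFD4). Each line is a single knock-in clone, and 2 biological replicates of input and of pulldown were sequenced for each, giving 4 groups and 8 libraries. All 4 groups were treated alike before lysis, with cycloheximide (100 µg per ml, 1 min), which arrests elongating ribosomes, and the crosslinker DSP (2 mM, 30 min), which fixes chaperones to nascent chains. The question put to the data was whether ribosomes that translate cytosolic Hsp90 and its co-chaperones were recovered with TRiC or with PFD more or less than in proportion to their input.

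Hsp90 is an ATP-driven homodimeric chaperone that completes the folding of kinases, steroid receptors and many other signalling proteins, and it acts on clients handed over by Hsp70. HSP90AA1 encodes the stress-inducible and HSP90AB1 the constitutive cytosolic isoform. Co-chaperones time the cycle: STIP1 (Hop) bridges Hsp70 and Hsp90, CDC37 recruits protein kinases, AHSA1 stimulates the ATPase, PTGES3 stabilises the closed state, FKBP4, FKBP5 and PPID are peptidyl-prolyl isomerases that join steroid receptor complexes, and UNC45A assists the folding of myosin. TRiC is the cytosolic chaperonin, known for folding actin and tubulin, and prefoldin delivers nascent chains to it.

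The coding sequences bear on what the counts can resolve, because only reads with a single alignment in the genome had been counted. The ends of both Hsp90 coding sequences are shown because they encode the C-terminal tail to which the tetratricopeptide repeat domains of STIP1, FKBP4, FKBP5 and PPID bind, the feature that joins most of these genes into a single system. The capitals mark the last 5 codons, and the lower-case bases after them are the stop codon (hg38, GENCODE release 44, 5′ to 3′, each within 1 exon; HSP90AA1 at chr14:102081712-102081741 on the minus strand, HSP90AB1 at chr6:44253569-44253598 on the plus strand).
HSP90AA1: gacacatcacgcATGGAAGAAGTAGACtaa
HSP90AB1: gatgcgtctcgcATGGAAGAAGTCGATtag
These ends differ at 7 of the 30 bases, and at 2 of the 15 bases in capitals. The longest run of identical bases in the alignment of both coding sequences is shown because it sets how far a footprint could match both genes. It is 23 bases long, at coding positions 61 to 83 of HSP90AA1 (chr14:102086296-102086318) and 46 to 68 of HSP90AB1 (chr6:44248675-44248697).
Identical run: gcctttcaggcagaaattgccca
Over the whole alignment the coding sequences were identical at 76.0% of the ungapped positions, and no stretch of 30 bases, about the length of a footprint, was shared.

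The paralogs were thus separable at footprint length, but copies elsewhere in the genome were frequent. Processed pseudogenes are intron-less genomic copies of an mRNA, and 24 of them carry the names of these genes. Of the 30-base stretches in the coding sequence, 59.5% in HSP90AA1, 51.3% in HSP90AB1 and 77.8% in PTGES3 had an exact copy elsewhere in hg38. The share was 22.9% in FKBP4, 21.0% in STIP1 and 8.76% in CDC37, while no such copy was found for AHSA1, FKBP5, PPID and UNC45A. A read from such a stretch that aligned equally well to a copy would not have been counted, so the levels of HSP90AA1, HSP90AB1 and PTGES3 are the most exposed to lost reads. The pseudogenes themselves held few reads, between 1.07% and 1.77% of the summed counts of gene and copies for HSP90AB1, between 0.621% and 3.24% for HSP90AA1, and at most 4.42% for PTGES3. A second limit concerns strand, since the strand setting of the counting is not given in the sources used here: exons of opposite-strand genes cover 56.7% of the exon bases of PPID, 20.1% of UNC45A and 11.4% of FKBP4, and less than 10% in each of the other 7 genes. Of the further genes named below, this cover was over 10% in CDK4 (44.25%), STUB1 (42.49%), TRAP1 (28.5%), VIM (24.63%) and CCT4 (16.88%).

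The libraries held between 9523128 and 32637658 counts, and the 10 genes together took between 0.347% and 0.416% of the counts in the TRiC line and between 0.638% and 0.651% in the PFD line. The lowest count of any of them was 356 and the highest 127636. The spread between replicates was wider in the PFD libraries, with a common dispersion (the squared coefficient of variation between replicates) of 0.331 against 0.0153 in the TRiC libraries. The PFD pulldowns stood apart from each other: without PFD pulldown replicate 2 the PFD comparison called 2434 genes in place of 34 (1081 higher and 1353 lower), and without PFD pulldown replicate 1 it called 395 (116 higher and 279 lower). Markers of the mesenchymal line (VIM, FN1, SPARC, COL1A1, CD44 and RUNX2) were present in every library tested, whereas EPCAM stayed at or below 18.2 CPM (counts scaled to the library total) in the inputs, and PTPRC, CD3E and ALB, markers of leukocytes, T cells and hepatocytes, did not pass the filter on low counts. The endothelial marker PECAM1 had no more than 1.21 CPM in TRiC input and 0 in PFD input. Mitochondrially encoded genes took 1.51% and 1.63% of the TRiC input counts but 0.171% and 0.213% after TRiC pulldown, and 0.966% and 0.91% of the PFD input counts but 0.339% and 0.188% after PFD pulldown.

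Levels of different genes were compared per length, as RPKM, the count divided by coding length in kilobases and scaled to the library total. HSP90AB1 (chr6:44246166-44253888) was the highest of the 10 genes in every group. Its level was 969 and 1044 RPKM in TRiC input, 899 and 856 in TRiC pulldown, 2098 and 2041 in PFD input, and 1984 and 2056 in PFD pulldown. The pulldowns lay below the inputs in the TRiC line, overlapped them in the PFD line, and all 4 PFD libraries lay above all 4 TRiC libraries. HSP90AA1 (chr14:102080742-102139699) was at 247 and 260 RPKM in TRiC input, 248 and 246 in TRiC pulldown, 188 and 185 in PFD input, and 217 and 164 in PFD pulldown. The inducible isoform thus ran the other way between the lines, with every TRiC library above every PFD library. How many of all genes were split between the lines in this way was not computed.

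**Figure D1:**
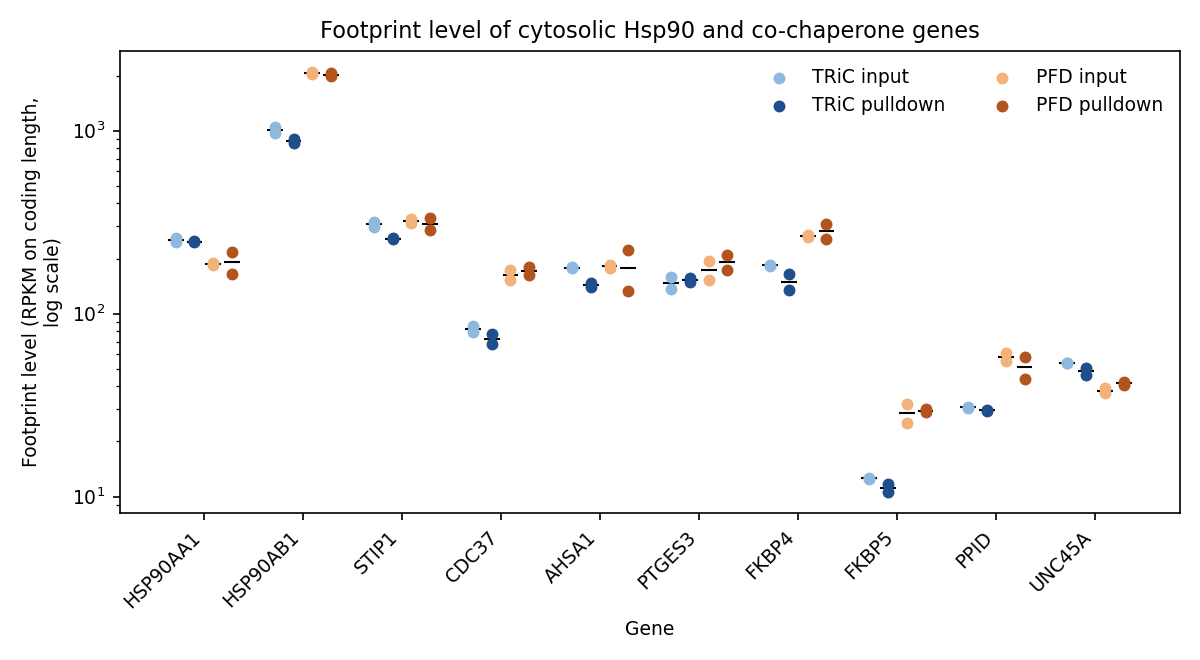
Footprint level of the 10 genes in the 8 libraries, in RPKM on coding length on a log axis, with 1 point per library and a black line at the mean of the 2 replicates. HSP90AB1 lies above the other 9 genes in every group, at a mean of 1007 RPKM in TRiC input and 2070 in PFD input, and FKBP5 is the lowest.

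STIP1 (chr11:64185272-64204543) was the most abundant co-chaperone, at 299 and 318 RPKM in TRiC input, 259 and 255 in TRiC pulldown, 311 and 327 in PFD input, and 332 and 287 in PFD pulldown. In the TRiC inputs the mean levels ran in the order HSP90AB1, STIP1, HSP90AA1, FKBP4, AHSA1, PTGES3, CDC37, UNC45A, PPID and FKBP5, from 1007 ± 52.8 (SD, n = 2) to 12.6 ± 0.00705 RPKM (SD, n = 2). An SD over 2 libraries can fall below counting error, as for FKBP5, counted 495 and 520 times in the TRiC inputs. No neighbours in that order had overlapping replicates, although FKBP4 and AHSA1 differed by a ratio of only 1.03. In the PFD inputs FKBP4 stood above HSP90AA1 and PPID above UNC45A, and the replicates of AHSA1, PTGES3 and CDC37 overlapped between neighbours. FKBP5 (chr6:35573585-35728583), an isomerase whose gene is known as a glucocorticoid target, was lowest in all 4 groups, at 12.5 and 12.6 RPKM in TRiC input and 31.8 and 25.3 in PFD input.

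The order depended on how the length was counted. Divided by the coding positions whose 30-base stretch has no copy elsewhere, 101 of which remain in PTGES3 and 878 in HSP90AA1, the TRiC input levels became 2092 ± 110 (SD, n = 2) for HSP90AB1, 700.3 ± 74.5 for PTGES3, 633 ± 22.3 for HSP90AA1 and 397 ± 16.9 RPKM for STIP1 (SD, n = 2 each). PTGES3, sixth on the full coding length, then had the second mean, with replicates (648 and 753) that overlapped those of HSP90AA1 (617.5 and 649).

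The isoform balance differed between the lines more than between input and pulldown. HSP90AB1 accounted for 79.5% and 79.9% of the HSP90AA1 and HSP90AB1 counts in TRiC input (exact Clopper-Pearson 95% intervals 79.2% to 79.8% and 79.7% to 80.2%), and for 78.2% and 77.5% in TRiC pulldown (77.9% to 78.5% and 77.2% to 77.9%). The share was 91.7% and 91.6% in PFD input (91.5% to 91.9% and 91.4% to 91.9%), and 90.04% and 92.5% in PFD pulldown (89.8% to 90.3% and 92.4% to 92.7%). These intervals cover counting error only. The TRiC pulldowns lay below the TRiC inputs without overlap, with means of 77.9% and 79.7% and a difference of −1.86 percentage points, whereas the PFD pulldowns lay on either side of the PFD inputs. An exact two-sided permutation test over libraries gave p = 0.333 for the TRiC pulldowns against their inputs, p = 1 for the PFD pulldowns against theirs, and p = 0.333 for PFD against TRiC inputs, and 0.333 is the smallest value that 2 libraries against 2 allow. Per position without a copy elsewhere, the HSP90AB1 to HSP90AA1 ratio was 3.26 and 3.34 in TRiC input and 9.28 and 9.19 in PFD input.

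Set against the summed Hsp90 level of the same library, the 8 co-chaperones together reached 80.7% and 77.7% in TRiC input, 78.1% and 75.6% in TRiC pulldown, 53.8% and 54.9% in PFD input, and 56.4% and 57.01% in PFD pulldown, all per coding length. The lower values in the PFD line went with its higher summed Hsp90 level, 2286 and 2226 RPKM in PFD input against 1216 and 1303 in TRiC input. STIP1 stood at 24.6% and 24.4% of Hsp90 in TRiC input and at 13.6% and 14.7% in PFD input. CDC37, the kinase co-chaperone, ranged between 6.09% and 8.19% of Hsp90 over all 8 libraries. These ratios depend on the length used. Per position without a copy elsewhere, TRiC input held 2014 and 2170 RPKM of HSP90AB1 and 618 and 649 of HSP90AA1. On that scale STIP1 had 385 and 409 and CDC37 95.9 and 89.1 RPKM, so both stood lower against Hsp90 than on the full coding length. PTGES3, at 648 and 753 RPKM, stood higher against Hsp90 than on the full coding length. The total of the 8 co-chaperones was not computed on that scale.

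The first comparison asked which of these genes gained or lost footprints on TRiC-bound ribosomes. No member was higher in the TRiC pulldown, and 4 of the 10 were lower: HSP90AB1, STIP1, AHSA1 and FKBP4. The changes were small, between −15.6% and −22.2% of the input level. Of all 17934 genes tested with edgeR's quasi-likelihood test (adjusted p under 0.05), 8.64% were higher and 10.6% lower. Among the 4229 genes with a mean of at least 50 CPM, to which 8 of the members belong, 9.79% were higher and 26.7% lower. The median log2 fold change of the members was −0.22, against −0.003 over all genes and −0.10 over the abundant genes. The plot of log2 fold change distributions shows the members within the main body of the abundant genes.

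**Figure D2:**
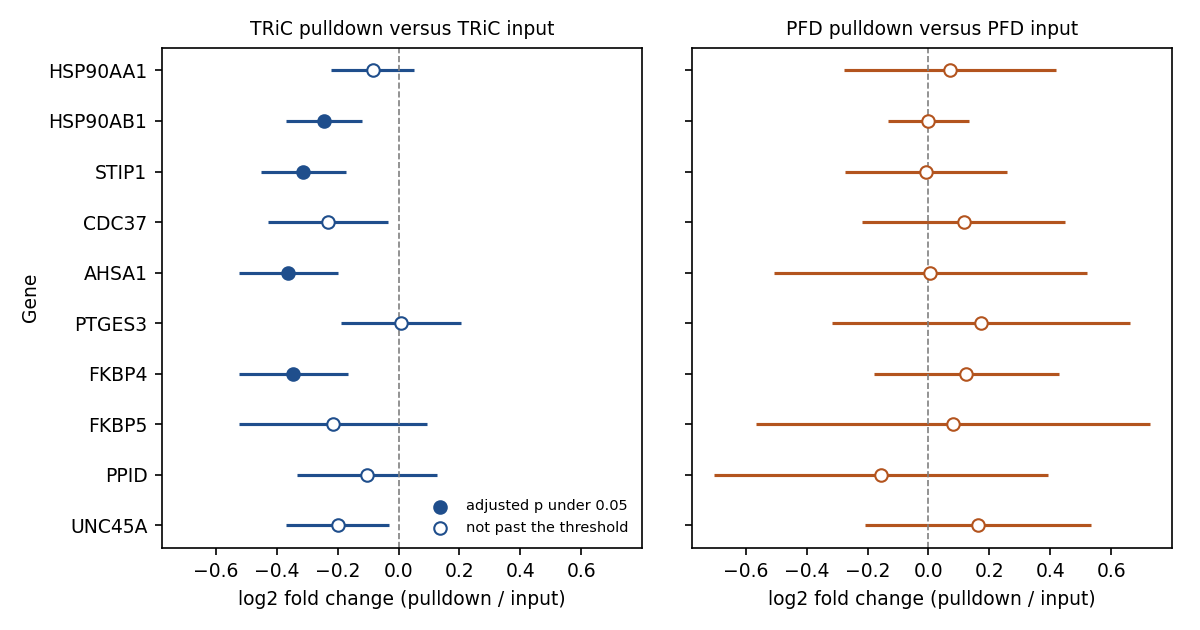
Log2 fold change of pulldown over input for each gene, with 95% confidence intervals from edgeR (n = 2 libraries per group), for TRiC on the left and PFD on the right. Filled points have an adjusted p under 0.05: HSP90AB1, STIP1, AHSA1 and FKBP4 in the TRiC pulldown, between −0.24 and −0.36, and none in the PFD pulldown.

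HSP90AB1 had 2186 and 2263 CPM in TRiC input and 1912 and 1842 in TRiC pulldown (CPM on normalised library sizes). The pulldowns lay below both inputs, with a log2 fold change of −0.24 (SE 0.06, adjusted p = 0.00765 from edgeR). This call rested on the scaling: cyclic loess normalisation moved the value to −0.05, and it did not pass with library totals (−0.20) or when genes under 100 counts in any library were left out (−0.18). HSP90AA1 had 563 and 569 CPM in input and 533 and 534 in pulldown. On this scaling its pulldowns also lay below both inputs, but the log2 fold change of −0.08 (95% interval −0.22 to 0.05) did not pass the test. On library totals its replicates overlapped, and cyclic loess put it at 0.06.

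STIP1, the Hsp70–Hsp90 adaptor, had 506 and 517 CPM in TRiC input and 413 and 411 in pulldown, at a log2 fold change of −0.31 (SE 0.07, adjusted p = 0.00337 from edgeR). AHSA1 (chr14:77457870-77469472), the ATPase activator, had 188 and 180 CPM in input and 146 and 140 in pulldown, the steepest fall of the 10 genes at −0.36 (SE 0.08, adjusted p = 0.0036 from edgeR). FKBP4 (chr12:2794970-2805423), an isomerase of steroid receptor complexes, had 265 and 250 CPM in input and 221 and 185 in pulldown, at −0.34 (SE 0.09, adjusted p = 0.00887 from edgeR). Both replicates of each of these pulldowns lay below both inputs. With cyclic loess AHSA1 and FKBP4 were the 2 members that passed, while STIP1 was at −0.17.

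The other co-chaperones gave no call in this fit, which leaves out the replicate numbers. With the replicate number as a block, CDC37 (−0.23, adjusted p = 0.0179 from edgeR) and UNC45A (−0.20, adjusted p = 0.0187) passed. The calls over all genes then rose from 3444 to 4689. The values that follow are from the fit without the block. CDC37 (chr19:10391133-10420121) had 101 and 89.9 CPM in TRiC input and 85.7 and 76.4 in the pulldowns, at −0.23 (SE 0.09, adjusted p = 0.0935 from edgeR). UNC45A (chr15:90930180-90954093), the myosin chaperone, had 158 and 152 CPM in input and 140 and 130 in pulldown, at −0.20 (SE 0.08, adjusted p = 0.0898 from edgeR). FKBP5 was at −0.22 (95% interval −0.52 to 0.09) and PPID (chr4:158709127-158723396) at −0.10 (−0.33 to 0.13). PTGES3 (chr12:56663341-56688408) was the only member above 0, at 0.008 (−0.19 to 0.20), with 67.9 and 75.9 CPM in input and 73.9 and 70.7 in pulldown. In 9 of the 10 genes both pulldowns lay below both inputs, against 31.2% of all genes tested, and 29.3% of all genes had both pulldowns above both inputs. On library totals this held for 8 of the 10, without HSP90AA1, and for 26% of all genes. These shares were not computed for the abundant genes alone, of which 65.7% had a log2 fold change below 0.

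These calls depended on which libraries were used. Different members passed when each TRiC library was left out in turn. The log2 fold change then ran from −0.28 to −0.21 for HSP90AB1, from −0.32 to −0.30 for STIP1, from −0.40 to −0.32 for AHSA1 and from −0.49 to −0.21 for FKBP4. It ran from −0.33 to −0.14 for CDC37 and from −0.27 to −0.13 for UNC45A. With the PFD libraries in the same fit none of the 10 passed. That fit called only 16 of all 18855 genes higher and 15 lower, where the fit of the TRiC libraries alone called 1550 and 1894 of 17934. The log2 fold changes hardly moved, at −0.24 for HSP90AB1 (adjusted p = 0.297 from edgeR), −0.31 for STIP1 (0.249), −0.36 for AHSA1 (0.83) and −0.35 for FKBP4 (0.403).

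The second comparison asked the same of PFD-bound ribosomes. No member was called in either direction, and none had an unadjusted p under 0.05. The test called 0.0496% of 14111 genes higher and 0.191% lower, or 0.0472% and 0.425% of the 4238 genes with a mean of at least 50 CPM. Across all genes 978 had an unadjusted p under 0.05, and DESeq2 called 256 higher and 295 lower, again with no member among them. The members ran from −0.16 (PPID) to 0.17 (PTGES3) with a median of 0.07, against −0.0005 over all genes. UNC45A was the only member whose replicates did not overlap, with 110 and 103 CPM in PFD input and 118 and 120 in the pulldowns, while over all genes both pulldowns lay above both inputs in 18.3% and below them in 20.4%.

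HSP90AB1 had 4520 and 4383 CPM in PFD input and 4424 and 4479 in PFD pulldown. Its log2 fold change was −0.0001, with a 95% interval of −0.13 to 0.13, the narrowest of the 10. For HSP90AA1 the inputs held 409 and 401 CPM and the pulldowns 490 and 362, on either side of them. AHSA1 showed the widest split, with 180 and 184 CPM in the inputs but 139 and 226 in the pulldowns, and an interval of −0.51 to 0.52. The interval of FKBP5 ran from −0.57 to 0.73 and that of PPID from −0.70 to 0.39. The TRiC estimate lay below the PFD interval in HSP90AB1, STIP1 (−0.27 to 0.26), CDC37 (−0.22 to 0.45) and FKBP4 (−0.18 to 0.43). It lay within that interval in the other 6 genes, where a PFD value equal to the TRiC estimate was not excluded. This leaves out the error of the TRiC estimates. The TRiC interval overlapped the PFD interval in HSP90AB1 (−0.37 to −0.12 with TRiC), and also in STIP1, CDC37 and FKBP4.

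**Figure D3:**
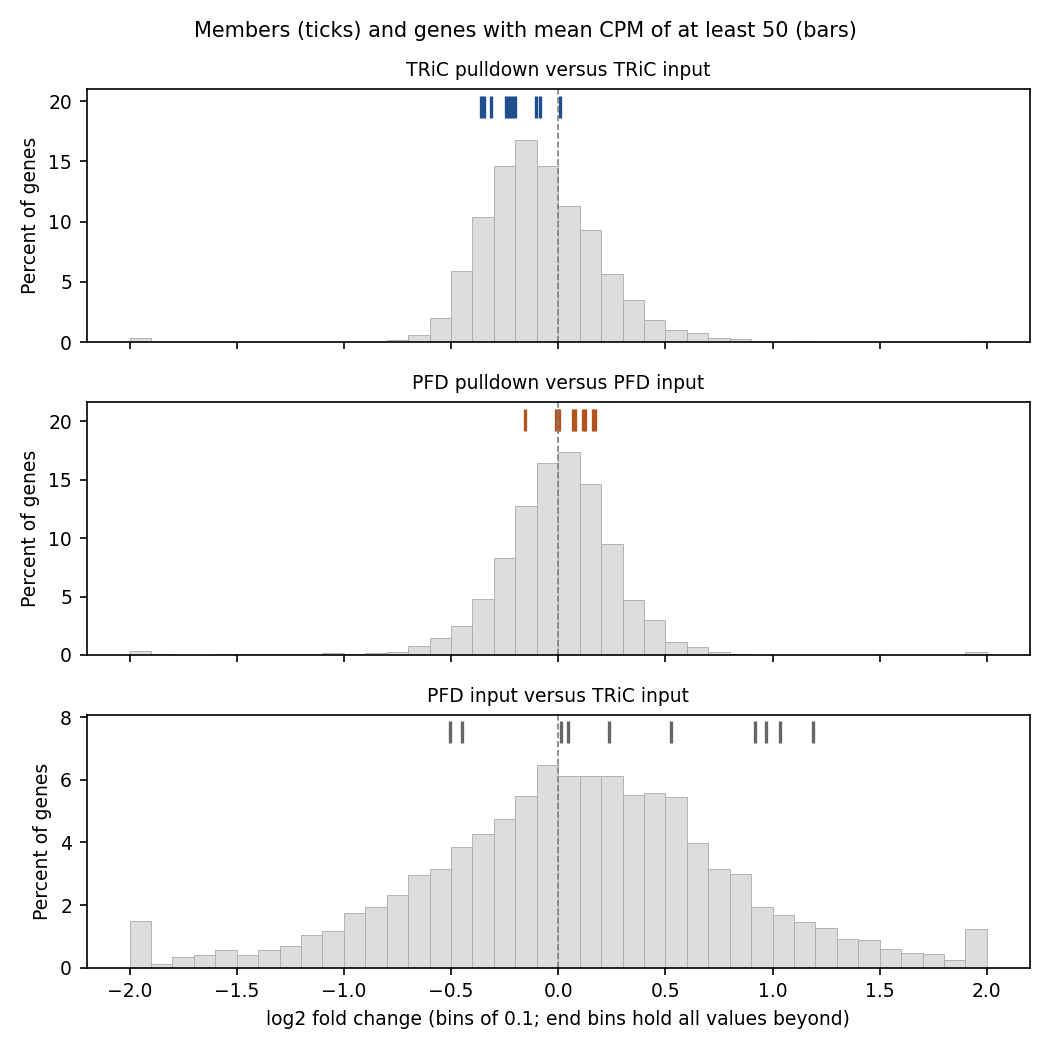
Log2 fold changes of the 10 genes (ticks) above the distribution over genes with a mean of at least 50 CPM (bars, percent of genes in bins of 0.1), for the TRiC pulldown over input, the PFD pulldown over input, and the PFD input over TRiC input. The members' medians are −0.22, 0.07 and 0.38, and the medians of the abundant genes −0.10, 0.008 and 0.10.

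Whether both enrichments differed was tested directly, as the TRiC pulldown over input minus the PFD pulldown over input in a fit of all 8 libraries. No member passed. The test called 0.0212% of 18855 genes higher and 0.0159% lower, or 0.0701% and 0.0467% of the 4280 abundant genes. Of the members 9 were below 0, as were 60.3% of the abundant genes. The members' median was −0.28, against −0.006 over all genes and −0.09 over the abundant genes. The values furthest from 0 were FKBP4 at −0.45 (95% interval −0.83 to −0.08, adjusted p = 0.277 from edgeR), AHSA1 at −0.37 (−1.05 to 0.32) and UNC45A at −0.35 (−0.69 to −0.01, adjusted p = 0.331). An unadjusted p under 0.05 was reached by 4 members, HSP90AB1, STIP1, FKBP4 and UNC45A, and by 2791 genes in all. DESeq2 called 481 of the 18855 genes higher and 536 lower, HSP90AB1 alone of the members (−0.24, adjusted p = 0.00322 from DESeq2). Cyclic loess put HSP90AB1 at 0.04 (adjusted p = 0.867 from limma). Without PFD pulldown replicate 1, AHSA1 was at −0.70, but without PFD pulldown replicate 2 it was at 0.10. Without PFD pulldown replicate 2, STIP1 was at −0.35 and FKBP4 at −0.55, with the median of all genes then at 0.32.

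The last comparison set the total ribosomes of the PFD line against those of the TRiC line. It found 5 members higher in the PFD line (HSP90AB1, CDC37, FKBP4, FKBP5 and PPID) and 2 lower (HSP90AA1 and UNC45A), while STIP1, AHSA1 and PTGES3 did not pass. The lines differed widely: of 16341 genes tested, 17.7% were higher and 22.6% lower, and of the 4302 abundant genes 36.8% and 25.3%. The median over all genes was −0.11 and moved to 0.03 with cyclic loess, and the members' median of 0.38 moved to 0.27. The same 7 members were called, in the same directions, under each of the 7 other settings run, and PTGES3 passed as well without PFD input replicate 2 (0.39). Clone, cell line and library preparation cannot be told apart here, and footprints cannot separate more mRNA from more ribosomes on each mRNA.

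**Figure D4:**
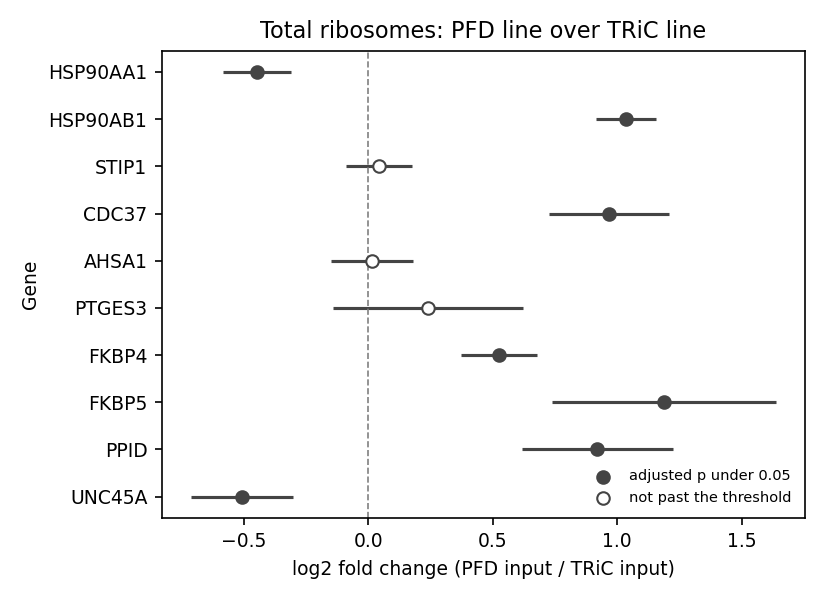
Log2 fold change of PFD input over TRiC input for each gene, with 95% confidence intervals from edgeR (n = 2 libraries per group). Filled points have an adjusted p under 0.05: FKBP5, HSP90AB1, CDC37, PPID and FKBP4 lie above 0 and HSP90AA1 and UNC45A below.

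The Hsp90 isoforms moved in opposite directions. HSP90AB1 had 2153 and 2232 CPM in TRiC input and 4611 and 4376 in PFD input, 2.05-fold higher (log2 fold change 1.03, SE 0.05, adjusted p = 0.000174 from edgeR). HSP90AA1 had 555 and 561 CPM in TRiC input and 418 and 400.2 in PFD input, at −0.45 (SE 0.06, adjusted p = 0.00269 from edgeR). Neither gene's inputs overlapped between the lines, but the share of all genes without such overlap was not computed.

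Among the isomerases, FKBP5 rose most, from 17.6 and 16.9 CPM in TRiC input to 44.2 and 34.3 in PFD input (log2 fold change 1.19, SE 0.18, adjusted p = 0.00555 from edgeR). PPID stood at 34.7 and 33.7 against 68.6 and 60.6 CPM (0.92, SE 0.12, adjusted p = 0.00342). FKBP4 stood at 261 and 247 against 365 and 366 CPM (0.53, SE 0.06, adjusted p = 0.00222). All 3 isomerases were thus higher in the PFD line.

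CDC37 had 99.2 and 88.6 CPM in TRiC input and 175 and 193 in PFD input, 1.96-fold higher (log2 fold change 0.97, SE 0.10, adjusted p = 0.00137 from edgeR). UNC45A had 156 and 150.1 CPM against 112 and 103, at −0.51 (SE 0.08, adjusted p = 0.00689). STIP1 was at 0.04 (95% interval −0.09 to 0.18), AHSA1 at 0.02 (−0.15 to 0.18) and PTGES3 at 0.24 (−0.14 to 0.62), and the intervals of STIP1 and AHSA1 exclude a change as large as that of any called member. The tagged subunits differed as well, with CCT4 2.63-fold higher in the PFD line and PFDN4 at a log2 fold change of −1.97 (adjusted p = 0.00115 from edgeR). Of the line markers, FN1 was 7.22-fold and CD44 6.15-fold higher in PFD input, and SPARC was lower (−0.47). The part of these line differences in the members' values was not tested.

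The wider co-chaperone network was followed in 18 further genes, 17 of which passed the filter on low counts (UNC45B, the muscle form, did not). In the TRiC pulldown 8 of the 17 were lower and 1 was higher, with a median of −0.28, where 10.6% of all genes and 26.7% of abundant genes were lower. Among the larger falls were those of TTC4 (−1.46, at no more than 4.87 CPM in any TRiC library), FKBP8 (−0.55), STUB1 (−0.50) and SGTA (−0.49). FKBP8 is a membrane-anchored isomerase, STUB1 a ubiquitin ligase of the Hsp70 and Hsp90 systems, and SGTA a factor for tail-anchored proteins. NUDCD2 followed at −0.44. FNIP1, a folliculin partner that inhibits the Hsp90 ATPase, was the gene that rose (0.29, adjusted p = 0.0434 from edgeR) and is named after its value was seen. In the PFD pulldown none of the 17 passed, with a median of −0.15. Between the inputs 6 were higher in the PFD line, among them CHORDC1 (0.58), PPP5C (0.54) and NUDC (0.52), and 4 were lower, of which FNIP1 (−0.88) and NUDCD2 (−0.76) lay furthest from 0. Of all genes 17.7% were higher and 22.6% lower there, and of abundant genes 36.8% and 25.3%, so the counts of this list lay near the shares of abundant genes.

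The organellar paralogs gave a reference within the family. HSP90B1, the Hsp90 of the endoplasmic reticulum, did not pass in the TRiC pulldown (0.08, 95% interval −0.05 to 0.22), the PFD pulldown (−0.26, −0.59 to 0.08) or the inputs (−0.01, −0.15 to 0.13). TRAP1, the mitochondrial paralog, fell in the TRiC pulldown (−0.29, adjusted p = 0.0171 from edgeR), with 141 and 143 CPM in input and 119 and 114 in pulldown. In the PFD pulldown it stood at −0.64 (adjusted p = 0.272), and in the inputs it was 1.92-fold higher in the PFD line.

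Among 14 textbook clients of Hsp90, 13 of which passed the filter (AHR did not), 2 were lower in the TRiC pulldown, the kinases LIMK1 (−0.35, adjusted p = 0.0328 from edgeR) and CDK4 (−0.31, adjusted p = 0.0142), and none was higher. Of all genes 8.64% were higher and 10.6% lower there, and of abundant genes 9.79% and 26.7%. The client median in the TRiC pulldown was −0.03, and none of the 13 passed in the PFD pulldown. Between the inputs 3 clients were higher in the PFD line, among them MET (1.83) and CDK4 (0.40), and 3 were lower, ERBB2 (−1.90), AKT1 (−0.75) and IGF1R (−0.64). In that comparison 17.7% of all genes were higher and 22.6% lower, and 36.8% and 25.3% of abundant genes, so these counts were not set apart from the other genes. The tagged subunits themselves did not pass in either pulldown: CCT4 was at −0.13 with TRiC and PFDN4 at 0.17 with PFD.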

How the data were processed

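Counts per gene had been made by the authors from ribosome-protected fragments: PCR duplicates were removed by their molecular identifiers (UMI-tools), fragments of non-coding RNA were discarded with Bowtie2 2.4.2, and the rest were aligned to hg38 with STAR 2.7.10a, allowing up to 2 mismatches and a single alignment per read. Deposited were these counts, without normalisation, in a table for each cell line. The annotation release and the strand setting are not given in the sources used here. Of 60664 identifiers 60463 were named from GENCODE release 44.

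Pulldown and input of each line were compared in edgeR 4.0.16 (R 4.3.3, TMM, filterByExpr, quasi-likelihood test, Benjamini-Hochberg adjusted p under 0.05 over all genes tested). The difference of both enrichments was an interaction in all 8 libraries, and the inputs were compared in a fit of 4. SEs were taken from the fold change and its F statistic. DESeq2 1.42.0, cyclic loess with limma 3.58.1, library totals, other filters on low counts, a replicate block, all 8 libraries in a joint fit and leaving out each library were alternatives. The fits were tested on simulated data.

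CPM used TMM-scaled totals of the fit's libraries, RPKM all counts and the coding length of each gene's MANE Select transcript. All 10 members were named in every comparison, and of each further list the called genes, at most 6, by size of change. Values of some genes of these lists are not reported here. The members and lists were chosen with earlier results of these data known. Genes correlated with HSP90AA1 and HSP90AB1 over libraries are not named, because the 8 libraries fall into 2 clusters by line.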

Additional observations from a re-analysis of the deposited data

How the results depend on the processing

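In the TRiC pulldown the number of members called went from 4 to 2 with cyclic loess and to 0 with all 8 libraries in a joint fit. Over all genes the calls went from 3444 of 17934 to 3069 with cyclic loess, and to 31 of 18855 in the joint fit. Different members passed when each library was left out in turn. The members' median of −0.22 became −0.13 with cyclic loess and ranged from −0.29 to −0.14 when libraries were left out, the weakest without TRiC pulldown replicate 2. Of the difference between both enrichments, 1 member was called with DESeq2, where 1017 of all 18855 genes were called against 7 with edgeR. The members' median of that difference ran from −0.33 to −0.22 when a library was left out. Between the inputs the members' median of 0.38 became 0.27 with cyclic loess, 0.28 when every library had to hold 100 counts or more, and 0.28 to 0.44 when a library was left out. Without FKBP4, PPID and UNC45A, whose exons lie in part under opposite-strand genes, 4 members were called between the inputs and the median was 0.24; this alternative was chosen after seeing the data. In the PFD pulldown no member was called under any alternative run, with medians from 0.01 to 0.11 when libraries were left out. Dividing counts by coding length moved the HSP90AB1 share in the PFD inputs from 91.66% to 91.74%. No member called by the edgeR fit of the report changed sign under any alternative run. For the difference of enrichments, HSP90AB1 (called with DESeq2 alone, −0.24) was at 0.04 with cyclic loess, and AHSA1 (−0.70 without PFD pulldown replicate 1) at 0.10 without PFD pulldown replicate 2. Same-numbered libraries deviated together in the TRiC line (r = 0.24 over 8085 genes) but not in the PFD line (r = −0.10) or between the inputs (r = −0.05). The study took input RNA from the ribosome pellets used for pulldown, but the labels do not state which libraries share a pellet. The fits of the report leave out this possible pairing. With the replicate block 6 members were called in the TRiC pulldown (CDC37 and UNC45A in addition), 0 in the PFD pulldown, 0 for the difference and 7 between the inputs. Over all genes the block called 4689 in the TRiC pulldown in place of 3444, 0 for the difference in place of 7, and 5776 between the inputs in place of 6583. The cause of these changes was not tested. Over all genes, calls went from 7 and 27 (higher and lower) to 44 and 90 in the PFD pulldown with the replicate block and to 256 and 295 with DESeq2. FKBP5, with the lowest counts, had the largest SE in both pulldowns.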
